A study of Mus musculus with 6 samples.

Results

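Plasmacytoid dendritic cells (pDCs) were described in liver non-parenchymal cells of mice with nonalcoholic steatohepatitis (NASH), the inflammatory form of fatty liver disease. The cells were chosen by their own transcript counts. A kept cell counted as a pDC when it had at least 3 unique molecular identifiers (UMIs, each standing for 1 captured transcript) of Siglech plus Ccr9 with at least 1 of Siglech, at most 1 of Xcr1 plus Clec9a, at most 1 of Cd79a plus Cd3e and at most 5 of C1qa, C1qb and C1qc together. The limits on these other genes were aimed at type 1 conventional dendritic cells (cDC1s), B and T cells and macrophages, and no gene of type 2 conventional dendritic cells (cDC2s) was limited. Of 27544 kept cells in 6 libraries, 299 met the rule, so the levels of the genes that chose them are a description and not a result.

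Transcripts of single cells had been sequenced after capture in droplets (10x Chromium), in 3 libraries of mice given vehicle and 3 of mice given ginkgetin. Male C57BL/6J mice, bought at an age of 8 weeks, had all received a high-fat diet for 24 weeks, and in the last 8 weeks they were given by gavage either the vehicle, DMSO, or ginkgetin, a biflavone found in Ginkgo leaves, at 10 mg/kg/day. A group on normal chow was not analysed here, so each comparison is of treated with untreated diet-fed animals. Whether each library stands for 1 mouse is not given in the sources used here, and p-values then measure the spread between these libraries, which may be technical.

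pDCs are a dendritic cell lineage specialised for sensing viral and self nucleic acids. Endosomal Toll-like receptors 7 and 9 signal through MyD88 and IRF7 to large amounts of type I interferon, and the transcription factor E2-2, encoded by Tcf4, holds the lineage's identity. In the liver pDCs are a small resident population, better known for weak antigen presentation and for tolerance than for priming T cells.

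The 6 libraries held 13128697 to 61796882 UMIs and 3336 to 6918 kept cells, whose median depth was 2483 to 8412 UMIs. There were 91, 41 and 20 pDCs in the vehicle replicates, taken in order of their number, against 23, 93 and 31 in those given ginkgetin. Their summed counts were 120825 to 556878 UMIs per library, with medians of 5256 to 10288 UMIs and 1793 to 3164 genes per cell. Replicate 3 of each group stood apart from replicates 1 and 2, with deeper cells and another set of gene symbols, so values within these sets are given where they bear on a result. Libraries shared 266 cell barcodes over all pairs, none of them between pDCs of different libraries (0).

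The rule was accounted for cell by cell. Of 364 kept cells with enough Siglech and Ccr9, 59 were left out for Xcr1 and Clec9a, 3 for Cd79a and Cd3e and 4 for the C1q genes, and some failed more than one limit. The 59 cells were deeper than the members (medians of 8838 and 5809 UMIs) and carried most of the pDC genes compared, which the rule did not use, at lower levels. Summed over these cells, Irf8 stood at 2732 CPM (UMIs per 1000000 UMIs of the cells summed), Tcf4 at 1325, Bst2 at 2716 and Cox6a2 at 786, against 3046, 1578, 3776 and 1303 CPM over all members. Klk1 was the exception, at 634 against 600 CPM. Of these cells 58 had a UMI of Clec9a and 9 a UMI of Xcr1, and 87 of the 299 members also had a Clec9a UMI while none had one of Xcr1. Clec9a, a receptor for dying cells that defines cDC1s, is also known from mouse pDCs, and Xcr1, a chemokine receptor, marks cDC1s alone among dendritic cells. A further 52 cells passed the rule but not the limits of under 5000 genes and under 5% mitochondrial UMIs, 19 of them in vehicle replicate 3 and 24 in ginkgetin replicate 3.

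At the edge of the rule the cells were less alike. The 12 cells with 2 UMIs of Siglech plus Ccr9, just outside, had 1160 CPM of Irf8, 560 of Tcf4 and 1191 of Bst2, but only 50.9 of Ly6d and 10.2 of Cox6a2. The 16 members with 3 or 4 UMIs had 1136, 865, 1974, 358 and 78.6 CPM of these genes. The 246 members with 10 or more UMIs had 3231, 1642, 3915, 2316 and 1415 CPM. No Ccr9 UMI was found in 26 members, and 115 carried at least 1 C1q UMI.

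The label was checked against markers that the rule did not select on. Irf8, a transcription factor of the dendritic lineages, was found at 2902, 2838 and 2717 CPM in the pDCs of the vehicle replicates and at 2773, 2743 and 4236 CPM in those of the ginkgetin replicates. In each library this was above cDC1s (1358 to 1858 CPM), which also depend on it, and far above cDC2s (48.0 to 166 CPM). Tcf4 had a mean of 1606 CPM over the libraries in pDCs, 252 in B cells, 104 in cDC2s and 64.2 in cDC1s. Bst2, the interferon-induced surface protein tetherin that mouse pDCs carry at rest, had 3821 CPM in pDCs and 492 in all other kept cells. Those other cells are every kept cell that was not a pDC, so they include cDC1s, cDC2s, B cells and macrophages. The label therefore held by these markers, except that Tlr9 was nearly undetected, with 5 UMIs over all 299 cells.

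The genes that set these cells apart most evenly were ranked by their lowest ratio to all other kept cells over the 6 libraries, among genes with a mean of 100 CPM or more. Before the ratio was taken, 10 CPM were added to both levels, and the order depends on that. This contrast is the one the rule used, so it was not tested. Siglech, a sialic acid-binding receptor that signals through DAP12, came first with 1972, 2032 and 1429 CPM in the vehicle and 1697, 1934 and 2826 CPM in the ginkgetin replicates, against a mean of 8.33 in other cells. Cox6a2, a subunit of cytochrome c oxidase otherwise known from striated muscle, followed with 1359, 1356 and 1184 and then 869, 1388 and 1269 CPM against 5.81. Ccr9, the receptor for the gut and thymus chemokine CCL25, had 804, 684 and 420 and then 637, 806 and 1375 CPM against 8.92. Ginkgetin replicate 3, the library with the deepest pDCs, was highest for both genes of the rule, and no library fell near the level of other cells.

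The next genes formed a few kinds. Among enzymes, Klk1, a kallikrein protease, had a mean of 597 CPM against 2.64 in other cells, Upb1, an enzyme of pyrimidine breakdown, 322 against 9.82, Rnase6, a ribonuclease, 976 against 51.4, and Atp2a1, a calcium pump, 123 against 0.537. Among surface proteins, Cd300c, an activating receptor, had 337 against 2.72, Cd209d, a C-type lectin, 353 against 3.18, Klra17, the inhibitory receptor Ly49Q, 168 against 3.15, and Smim5, a small membrane protein, 431 against 5.87. Among transcription factors, Runx2, which is needed for pDCs to leave the bone marrow, had 534 against 15.5, Spib 336 against 12.5 and Bcl11a, a factor upstream of E2-2, 561 against 28.5. Bcl11a and Spib were also present in B cells at 153 and 97.3 CPM. The other dendritic classes shared some of these genes too. Bcl11a had 133 CPM in cDC2s, and Rnase6 had 259 CPM in cDC1s and 182 CPM in cDC2s. Ly6d, a surface protein of early B-lineage cells, was shared with B cells most of all, at 2099 CPM in pDCs and 1095 in B cells, while cDC1s and cDC2s had 3.29 and 3.64 CPM.

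**Figure D1:**
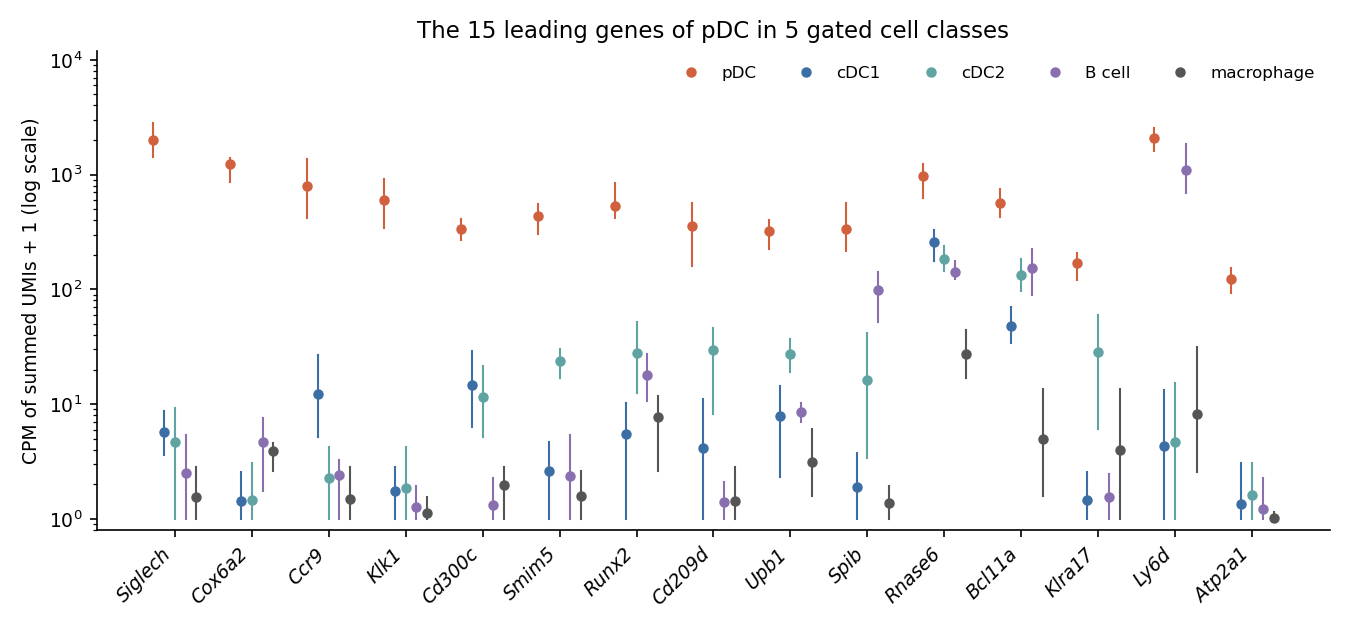
CPM of summed UMIs plus 1 (log axis) for the 15 leading genes of pDCs in 5 gated cell classes, where points are means and lines run from the lowest to the highest of the 6 libraries. Siglech, Cox6a2 and Ccr9 lay far below pDCs in the other classes, with Ccr9 highest in cDC1s (mean 11.2 CPM). Ly6d, Spib and Bcl11a were also high in B cells, Bcl11a in cDC2s, and Rnase6 in cDC1s and cDC2s.

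Single pDCs differed in how widely they carried these genes. A UMI of Tcf4 and of Bst2 was found in 99.7% of the 299 cells each and of Irf8 in 97.7%. When every cell was thinned to 1000 UMIs these shares were 73.2%, 94.6% and 91.3%. Klk1 was carried by 59.2% (35.5% thinned) and by 35.0% to 75.6% in single libraries, and Cd209d by 54.5% (25.1% thinned). In B cells, whose median depth was 2962 UMIs against 5809 in pDCs, 0.189% had a UMI of each of Klk1 and Cd209d and, after thinning, 0.114% and 0% had one. Ccl4, an inflammatory chemokine, was found in 65.6% of pDCs (40.8% thinned) and 6.28% of B cells (2.19% thinned). Cd8b1, a CD8 chain, was found in 39.5% (19.4% thinned) against 1.25% (0.378% thinned). Dividing cells were rare, since 3 of the 299 had 2 or more UMIs of 9 genes of the late cell cycle.

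The nucleic acid sensing machinery was unevenly detected. Of 22 genes on that list 14 passed the filter on low counts for the test between groups. Tlr7, the receptor for single-stranded RNA, had 59.3, 46.2 and 54.6 CPM in the vehicle and 41.4, 45.1 and 112 CPM in the ginkgetin replicates, against means of 0.206 in cDC1s, 3.85 in cDC2s and 38.7 in macrophages. Unc93b1, which carries these receptors to endosomes, had a mean of 506 CPM (macrophages 563), Pld4, an endosomal nuclease that limits their ligands, 805 (macrophages 305), and Irf7, the factor that switches on interferon genes, 170 (macrophages 289.9). Hsp90b1, their folding chaperone, had 798 CPM and 2591 CPM in B cells. Tlr9, the receptor for DNA, stayed at 0 to 6.42 CPM in all libraries.

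Type I interferon transcripts could be read only in part. Of 19 genes on the list of interferons and their receptor, 7 have no row under the symbol used, among them 5 interferon alpha genes, and those were not analysed here. Both receptor chains were present, Ifnar2 with 537 and Ifnar1 with 274 UMIs over all pDCs. Among pDCs Ifnb1 was found in 1 cell, of vehicle replicate 3 with 9 UMIs, out of 22 UMIs over all kept cells, and its symbol occurs only in the tables of replicate 3. That cell had 8737 UMIs in all, 12 of Siglech and 38 of Irf8. It also held 10 UMIs of Tnf, 18 of Isg15, 10 of Ifit2, 63 of Ccl3 and 489 of Ccl4, whereas the other 19 pDCs of the library together had 0, 7, 3, 12 and 255 UMIs of these genes. Tnf is an inflammatory cytokine, Isg15 and Ifit2 are interferon-stimulated, and Ccl3 and Ccl4 are chemokines that activated pDCs are known to release. This single cell was looked at after its values had been seen, and it gives most of the Ccl4 UMIs of the 20 pDCs of its library.

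**Figure D2:**
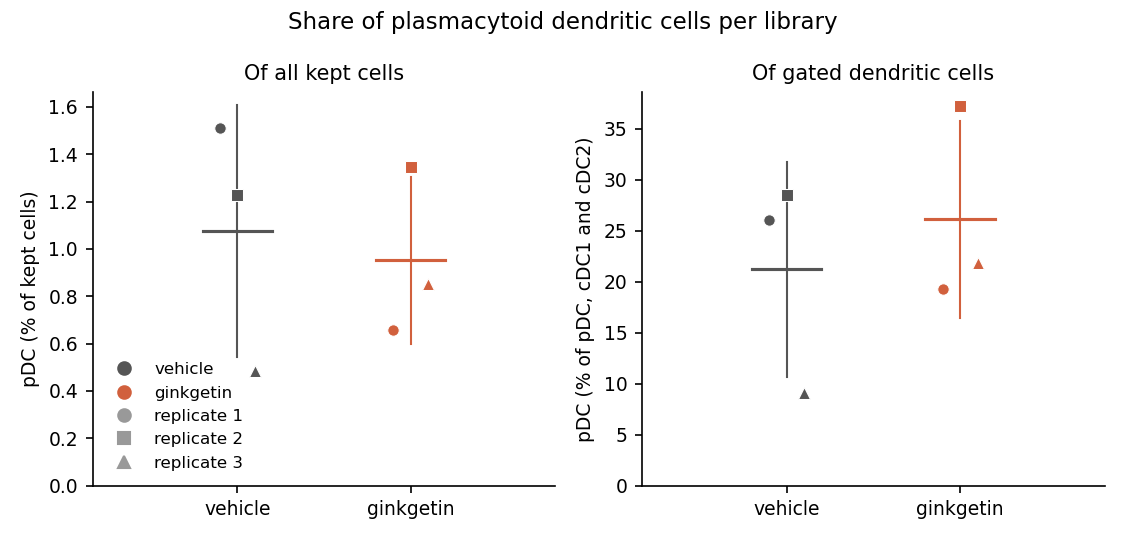
Share of pDCs in each library as a percentage of kept cells (left) and of gated dendritic cells (right), with the mean (bar) and SD (line) of each group and replicates by symbol. The groups overlapped in both panels, and vehicle replicate 3 was lowest at 0.483% and 9.09%.

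The first comparison between the groups asked whether ginkgetin-treated mice had another share of pDCs. They made up 1.51% (95% exact binomial interval 1.22 to 1.85), 1.23% (0.883 to 1.66) and 0.483% (0.296 to 0.746) of kept cells in vehicle replicates 1, 2 and 3. In the ginkgetin replicates they made up 0.658% (0.418 to 0.986), 1.34% (1.09 to 1.64) and 0.851% (0.579 to 1.21). The libraries of each group spread widely and the groups overlapped. The means were 1.07% ± 0.531 and 0.951% ± 0.354 (SD, n = 3 each; exact permutation p 0.9, two-sided), and 3 libraries against 3 cannot give a p below 0.10. The intervals cover counting error only. In vehicle replicate 3, 12 of 32 cells with enough Siglech and Ccr9 were left out for Xcr1 and Clec9a. With Clec9a not limited its share was 0.749%, against 0.687% in ginkgetin replicate 1. Without the limits on genes and mitochondrial UMIs these shares were 0.732% and 0.591%, so its lowest place depended on the rule. Among replicates 1 and 2 the ginkgetin mean was lower by 0.369 percentage points (difference -0.369), and in replicate 3 it was higher by 0.368. Without vehicle replicate 1 or without ginkgetin replicate 1 the sign of the pooled difference of -0.124 points turned, to 0.0950 and 0.0227.

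Macrophages and cDC2s are part of the denominator. In edgeR's quasi-likelihood test on cell numbers, macrophages had a log2 difference of -2.47 (adjusted p 0.0300) and cDC2s of -0.98 (adjusted p 0.0300), while pDCs had -0.16 (SE 0.48, adjusted p 0.745). The macrophage difference passed the threshold only without ginkgetin replicate 3 among the 6 fits that left out 1 library (adjusted p 0.0597 to 0.0839 in the other 5), and that of cDC2s only without vehicle replicate 2 or ginkgetin replicate 3. Among dendritic cells alone cDC2s had -0.47 (edgeR adjusted p 0.0814). Pairing the libraries by replicate number gave pDCs -0.11, and a block for the 2 barcode sets gave -0.07. Set against dendritic cells alone (pDCs, cDC1s and cDC2s), pDCs made up 26.1%, 28.5% and 9.09% in the vehicle and 19.3%, 37.2% and 21.8% in the ginkgetin replicates. These shares also overlapped, with means of 21.2% ± 10.6 and 26.1% ± 9.68 (SD, n = 3 each; exact permutation p 0.6, two-sided). The difference was 0.991 points among replicates 1 and 2 and 12.7 points in replicate 3. Without vehicle replicate 3 or ginkgetin replicate 2 it turned from 4.91 to -1.15 and -0.633 points.

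The second comparison asked which transcripts differed inside pDCs. UMIs were summed over the pDCs of each library and 3471 genes were tested with edgeR, where a call needed a fold over 2 and, after Benjamini-Hochberg adjustment, a p under 0.05. This called 5 genes, 0.144% of those tested, of which Fdps and Sqle rose and Hspa1a, Hspa1b and Jun fell with ginkgetin. At an unadjusted p under 0.05 there were 317 genes. Pairing the libraries by replicate number called 36 genes (1.04%, 16 higher and 20 lower), all 5 among them. The sources used here state no such pairing. It was inferred from these same counts, where it mostly set replicate 3 apart from replicates 1 and 2. Paired p-values below are therefore an alternative fit and no independent support. The groups did not overlap for 517 genes (14.9%). The number of calls rested on the libraries used, since it was 0 without vehicle replicate 2, without ginkgetin replicate 2 or without ginkgetin replicate 3 (274, 305 and 312 genes at an unadjusted p under 0.05 in edgeR), 3 without vehicle replicate 1 and 4 without vehicle replicate 3 or ginkgetin replicate 1.

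Fdps makes farnesyl pyrophosphate, from which cholesterol and the lipid anchors of small GTPases are built. It had 44.9, 71.4 and 65.5 CPM in the vehicle and 257, 236 and 222 CPM in the ginkgetin replicates. All ginkgetin libraries lay above all vehicle libraries, with little spread within a group. The log2 difference was 2.08 (SE 0.31, edgeR adjusted p 0.0120), and a UMI was found in 20.9%, 22.0% and 35.0% of vehicle and 60.9%, 54.8% and 67.7% of ginkgetin pDCs. Sqle, the squalene epoxidase, an enzyme within the sterol branch of the pathway, had 8.98, 21.0 and 5.46 CPM and then 99.3, 55.4 and 89.9 CPM. It rested on few transcripts, 5, 5 and 1 UMIs in the vehicle and 12, 27 and 28 in the ginkgetin libraries, and differed by 2.76 on the log2 scale (SE 0.49, edgeR adjusted p 0.0434). Neither gene was called when any 1 library was left out, with edgeR adjusted p-values of 0.0621 to 0.153 for Fdps and 0.0920 to 0.352 for Sqle.

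Further genes of low p that were higher with ginkgetin were not called in the unpaired edgeR test. Hmgcs1, which makes HMG-CoA at the head of the pathway, had 30.5, 16.8 and 65.5 CPM against 108, 141 and 180 CPM (log2 2.11, edgeR adjusted p 0.0554). Idi1, an isomerase just before Fdps, had 32.3, 46.2 and 60.02 against 124, 127 and 112 CPM (log2 1.54, edgeR adjusted p 0.138). Scd2, a desaturase of fatty acids, had 18.0, 42.0 and 32.7 against 82.8, 109 and 99.6 CPM (log2 1.85, edgeR adjusted p 0.130). In each of these 3 genes, chosen by low p, the libraries of the groups stayed apart, as they did for 14.9% of all genes. All 3 were called with the libraries paired, at edgeR adjusted p-values of 0.00274 for Hmgcs1, 0.0305 for Idi1 and 0.0264 for Scd2. Hmgcs1 was also called by unpaired DESeq2 (adjusted p 0.0112).

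**Figure D3:**
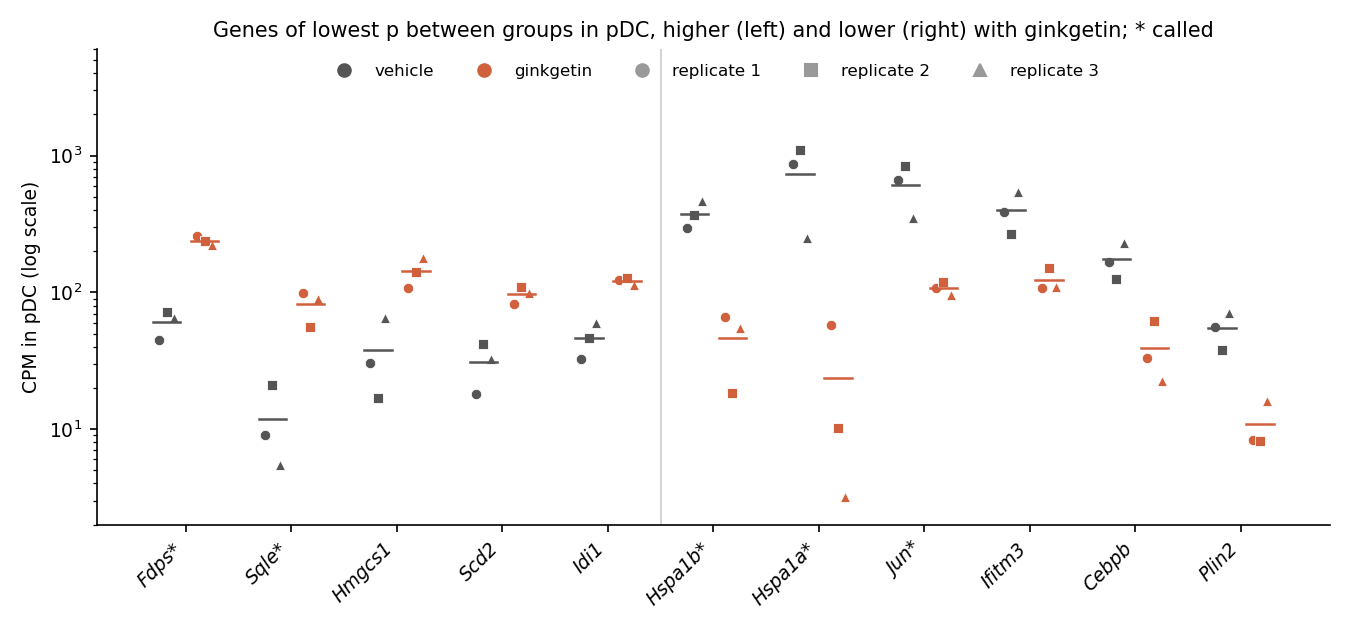
CPM in pDCs (log axis) of 11 genes of lowest p, 5 higher and 6 lower with ginkgetin, with 1 point per library, group means as bars and replicates by symbol, where an asterisk marks the 5 called genes. In all 11 genes the 3 ginkgetin libraries lay on one side of the 3 vehicle libraries, as in 14.9% of all genes tested. The 11 were chosen by low p in these same libraries, so this is no further result.

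Hspa1a and Hspa1b encode the heat-inducible chaperone HSP70. Hspa1a had 869, 1096 and 251 CPM in the vehicle and 57.9, 10.3 and 3.21 CPM in the ginkgetin replicates, and Hspa1b 294, 365 and 469 against 66.2, 18.5 and 54.6 CPM. Vehicle replicate 3 was the lowest of its group for the first gene and the highest for the other. The log2 differences were -5.45 (SE 0.76, edgeR adjusted p 0.00977) and -3.13 (SE 0.40, edgeR adjusted p 0.00698). With single libraries left out they ranged from -6.58 to -4.85 and from -3.43 to -2.65. Both calls were lost without vehicle replicate 2, ginkgetin replicate 2 or ginkgetin replicate 3 (edgeR adjusted p 0.0875 to 0.248 for Hspa1a and 0.0623 to 0.0843 for Hspa1b), and limma-voom called Hspa1b but not Hspa1a (adjusted p 0.152). In the ginkgetin libraries Hspa1a rested on 7, 5 and 1 UMIs. The genes are near-identical copies that can share reads, and how reads were split between them is not given in the sources used here, so their sum is the safer value. It was 1115 ± 373 CPM in vehicle and 70.2 ± 48.9 CPM in ginkgetin pDCs (SD, n = 3 each).

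The third gene that fell was Jun, a subunit of the AP-1 transcription factor. It had 659, 835 and 349 CPM in the vehicle and 108, 119 and 96.4 CPM in the ginkgetin replicates, a log2 difference of -2.46 (SE 0.38, edgeR adjusted p 0.0131). With 1 library left out it was called in 1 of 6 fits, without vehicle replicate 3 (edgeR adjusted p 0.00298 there and 0.0598 to 0.248 in the others), and limma-voom did not call it (adjusted p 0.0516). A UMI was found in 70.0% to 73.6% of the pDCs of vehicle libraries and 34.8% to 40.9% of those of ginkgetin libraries. Fos, its usual partner, named after its values were seen, had 192, 453 and 475 against 331, 351 and 360 CPM, and these overlapped. The 3 next genes of lowest p that were lower were not called in the unpaired edgeR test, whereas unpaired DESeq2 called Ifitm3 (adjusted p 0.0185) and Cebpb (adjusted p 0.0229). Ifitm3, an antiviral membrane protein, had 384, 269 and 540 against 108, 152 and 109 CPM (log2 -1.57, edgeR adjusted p 0.107, 0.00598 paired). Cebpb, a myeloid transcription factor, had 167, 126 and 229 against 33.1, 61.5 and 22.5 CPM (log2 -1.94, edgeR adjusted p 0.107, 0.00598 paired). Plin2, which coats lipid droplets, had 55.7, 37.8 and 70.9 against 8.28, 8.20 and 16.1 CPM (log2 -2.21, edgeR adjusted p 0.107, 0.0371 paired).

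Promoter windows of genes of these 2 kinds are shown because 1 short motif recurs in the 3 genes that fell. They are the 150 bases before the start site, 5′ to 3′ on the gene's strand, from RefSeq on GRCm38.p6, with the motif in capitals. The first 3 hold GAANNTTC, the paired core of the heat shock factor site, which reads the same on both strands, and Hmgcs1 holds TCACNCCAC, the core of the classical sterol regulatory element, searched on both strands.
Hspa1a: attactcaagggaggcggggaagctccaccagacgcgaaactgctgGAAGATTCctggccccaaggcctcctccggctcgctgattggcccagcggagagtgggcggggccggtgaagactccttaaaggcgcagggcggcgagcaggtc
Hspa1b: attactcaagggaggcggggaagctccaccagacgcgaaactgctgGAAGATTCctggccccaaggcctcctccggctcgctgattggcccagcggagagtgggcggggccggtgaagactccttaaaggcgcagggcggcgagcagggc
Jun: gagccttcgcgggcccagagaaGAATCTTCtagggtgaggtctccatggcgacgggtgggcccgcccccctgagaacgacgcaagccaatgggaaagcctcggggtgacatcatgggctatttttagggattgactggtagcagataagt
Hmgcs1: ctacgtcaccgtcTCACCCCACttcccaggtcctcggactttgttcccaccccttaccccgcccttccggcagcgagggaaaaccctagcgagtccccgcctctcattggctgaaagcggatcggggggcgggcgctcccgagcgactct

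These windows are at chr17:34972157-34972306 (minus strand) for Hspa1a, chr17:34959239-34959388 (minus) for Hspa1b, chr4:95052223-95052372 (minus) for Jun and chr13:119690201-119690350 (plus) for Hmgcs1. The windows of Hspa1a and Hspa1b are identical at 149 of 150 positions. Of the 12 genes of lowest p, 6 in each direction, 8 have a promoter in the table used. GAANNTTC occurs within 250 bases before the start of 4 of the 8 (Hspa1a, Hspa1b, Jun and Idi1) and of 6.69% of 32851 promoters. TCACNCCAC occurs in 1 of the 8 and in 1.05% of all. A match is a description of the letters and not of a bound site.

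The called genes were also read in other cells, since a change in pDCs is not shown to be theirs alone without a test. The summed Hspa1a and Hspa1b CPM did not overlap between groups in any class, with means of 1234 and 193 in cDC1s, 1520 and 176 in cDC2s, 846 and 104 in B cells, 798 and 432 in macrophages and 984 and 158 in all other kept cells (vehicle first). Jun had means of 394 and 211 CPM in cDC2s and 341 and 187 CPM in B cells, where the groups also stayed apart. It had 229 and 155 CPM in cDC1s, 339 and 414 CPM in macrophages and 434 and 454 CPM in all other kept cells, where they overlapped. Fdps had 49.5 and 78.9 CPM in cDC2s, 35.5 and 62.0 CPM in B cells and 34.4 and 50.3 CPM in all other kept cells, with the groups apart, and 65.3 and 87.8 CPM in cDC1s and 28.4 and 23.4 CPM in macrophages, with overlap. Sqle had 5.69 and 16.9 CPM in cDC1s, 9.55 and 27.1 CPM in cDC2s, 7.13 and 15.4 CPM in B cells and 5.19 and 17.0 CPM in all other kept cells, with the groups apart in each, and 3.15 and 6.12 CPM in macrophages, with overlap. The test of the difference between pDCs and cDC1s, with the library as block, called 0 of 6654 genes (0%) in edgeR, where 400 had an unadjusted p under 0.05, and DESeq2 also called 0. The log2 difference in pDCs minus that in cDC1s was 1.47 for Fdps (SE 0.30, edgeR adjusted p 0.108) and -1.91 for Jun (SE 0.39, edgeR adjusted p 0.108). It was 1.26 for Sqle, -2.03 for Hspa1a and -1.39 for Hspa1b (edgeR adjusted p 0.877, 0.407 and 0.248). This count of 0 also held without vehicle replicate 2 (399 genes at an unadjusted p under 0.05 in edgeR), but it was 17 without vehicle replicate 3, 15 without ginkgetin replicate 3, 9 without ginkgetin replicate 2, 2 without vehicle replicate 1 and 1 without ginkgetin replicate 1. Fdps and Jun passed the threshold of that test without vehicle replicate 3 (edgeR adjusted p 0.0470 and 3.69e-07) and without ginkgetin replicate 3 (0.0311 each), Jun also without ginkgetin replicate 2 (0.00152), and Hspa1a and Hspa1b without vehicle replicate 3 (0.000224 and 0.0135).

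**Figure D4:**
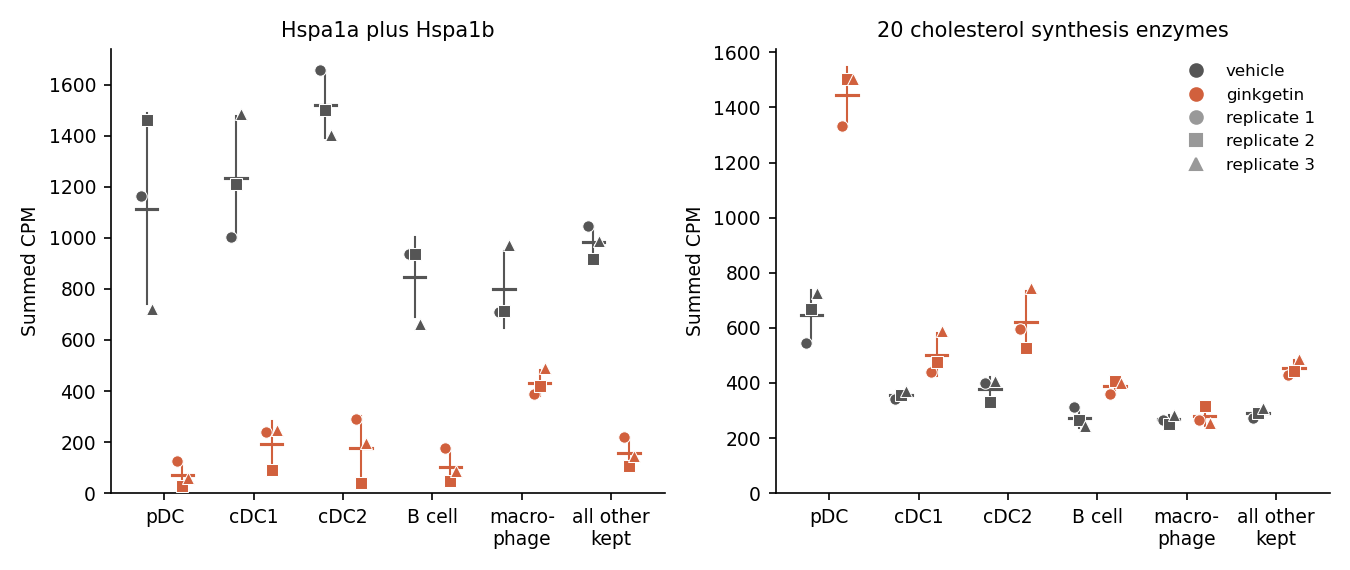
Summed CPM of Hspa1a plus Hspa1b (left) and of 20 cholesterol synthesis enzymes (right) per library in pDCs, 4 other gated classes and all other kept cells, with the mean (bar) and SD (line) of each group. All other kept cells include the 4 other gated classes. The HSP70 sum was lower with ginkgetin in every class, and the enzyme sum, of a list put together after its values had been seen, was 544 to 726 CPM in vehicle and 1333 to 1505 CPM in ginkgetin pDCs.

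The 20 enzymes of cholesterol synthesis were put together as a list after the values had been seen, so they are described and not tested. Of these 13 passed the filter, 11 with a positive log2 difference, and their median was 1.37 against 0.02 over all genes tested. Fdps and Sqle were called (0.144% of all genes were), and 7 of the 13 with the libraries paired (1.04% of all). The groups did not overlap for 11 of the 13, with 9 higher and 2 lower, against 14.9% of all genes. Their summed level in pDCs was 544, 667 and 726 CPM in the vehicle and 1333, 1505 and 1503 CPM in the ginkgetin replicates. It was 340 to 371 and 440 to 590 CPM in cDC1s, 331 to 408 and 527 to 744 CPM in cDC2s, 244 to 313 and 359 to 407 CPM in B cells, 252 to 285 and 254 to 317 CPM in macrophages, and 274 to 310 and 429 to 487 CPM in all other kept cells. The groups overlapped in macrophages and stayed apart in the other gated classes and in all other kept cells, which include those classes. Within the vehicle libraries pDCs lay above every other class listed.

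Marker levels of other cell types were measured in the pDCs beside these results. The 12 macrophage markers, some of which the rule limits, summed to 880, 403 and 1588 CPM in the vehicle and 82.8, 552 and 51.4 CPM in the ginkgetin replicates, most of it Lyz2. None of the 12 was at 0 over all pDCs, though 10 were below the filter. C1qb, which the rule limits, had 59.3, 67.2 and 38.2 against 0, 18.5 and 9.64 CPM. In all other kept cells the same markers summed to 16372 to 20761 CPM and 1589 to 3757 CPM. Ifitm3, Cebpb and Plin2 also differed in those cells, with 1826 and 852 CPM, 696 and 210 CPM, and 323 and 68.8 CPM (vehicle first). Macrophages were a smaller share of those cells with ginkgetin. In macrophages alone the means were 1728 and 1484 CPM, 782 and 899 CPM, and 514.5 and 146 CPM. There the groups overlapped for Ifitm3 and Cebpb and stayed apart for Plin2. The part of macrophage RNA in the pDC values of these genes was not tested. The 6 cDC2 markers summed to 1162, 1180 and 1042 CPM in the vehicle and 1341, 1060 and 1365 CPM in the ginkgetin replicates, of which Cd7, a gene pDCs share, had a mean of 561 CPM, and the 7 cDC1 markers summed to 96.5 to 189 CPM. Of the cDC2 markers Cd209a had a mean of 211 CPM in pDCs and 907 CPM in cDC2s, Clec10a 254 and 257 CPM, and Ffar2 0 UMIs in pDCs. B and plasma cell markers summed to 61.1, 50.4 and 1217 CPM in the vehicle and 74.5, 465 and 1786 CPM in the ginkgetin replicates, where 4 of the 10 symbols are in the tables of 1 symbol set only. Markers of monocytes and neutrophils summed to at most 147 CPM, of T and NK cells to at most 41.3 CPM, and of stellate cells and cholangiocytes to at most 53.3 CPM. Endothelial markers summed to 136 to 256 CPM (vehicle) and 265 to 757 CPM (ginkgetin), and hepatocyte markers to 160 to 600 and 82.8 to 504 CPM.

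Of 30 pDC identity genes 29 were tested and 0 were called (16 with a positive and 13 with a negative log2 difference, median 0.04, against a median of 0.02 and 0.144% called over all genes). In edgeR 3 of the 29 had an unadjusted p under 0.05, and DESeq2 and limma-voom called 0 of this list and of the 8 lists that follow, except for Ifitm3 (DESeq2). Groups did not overlap for 5 of the 29, near the 14.9% of all genes. Tcf4 had 1309, 1339 and 1315 CPM in the vehicle and 1705, 1497 and 2473 CPM in the ginkgetin replicates (log2 0.56, SE 0.30, edgeR adjusted p 0.568). Its means were 122 and 313 CPM in all other kept cells and 62.9 and 143 CPM in macrophages alone. Cd209d had 277, 281 and 158 against 563, 322 and 517 CPM (log2 0.98, SE 0.33, edgeR adjusted p 0.376). Both genes were apart in their ranges, yet the tests missed the threshold. Irf8 differed by 0.25 (SE 0.31), Bst2 by 0.04 (SE 0.33), Spib by 0.41 (SE 0.32), Runx2 by 0.45 (SE 0.29) and Ly6d by -0.06 (SE 0.31) on the log2 scale, all at edgeR adjusted p-values of 0.658 or more.

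Transcription factors of dendritic lineages gave 0 calls among 18 tested of 22 (12 positive and 6 negative, median 0.16, 1 at an unadjusted p under 0.05 in edgeR). With the libraries paired 1 was called (1.04% of all genes were), Id3, an inhibitor of E proteins such as E2-2, which was named after its values were seen. It had 250, 395 and 360 CPM in the vehicle and 157, 137 and 86.7 CPM in the ginkgetin replicates (log2 -1.33, edgeR adjusted p 0.183, 0.0141 paired). Id2, the inhibitor that steers cells to the conventional lineages, stood at a mean of 48.4 CPM in pDCs and 1585 CPM in cDC1s.

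Sensing and interferon response genes did not pass the test either. Of 14 sensing genes tested 0 were called (7 positive and 7 negative, median 0.04, 0 at an unadjusted p under 0.05 in edgeR). Tlr7 differed by 0.37 (SE 0.40, edgeR adjusted p 0.796) and turned negative, to -0.14, without ginkgetin replicate 3. Irf7 had 223, 185 and 196 against 174, 84.1 and 161 CPM (log2 -0.55, SE 0.30, edgeR adjusted p 0.590), and in all other kept cells 162 ± 19.3 and 48.0 ± 20.7 CPM (SD, n = 3 each). Macrophages, a smaller share of those cells with ginkgetin, had means of 293 and 287 CPM by themselves, and cDC1s 102 and 55.4 CPM. Among 7 tested interferon receptor and signalling genes 0 were called (6 positive, median 0.20, again 0 at an unadjusted p under 0.05 in edgeR), with the receptor chains Ifnar2 at 274 ± 60.8 and 290.2 ± 35.9 CPM and Ifnar1 at 136 ± 6.02 and 150.3 ± 78.6 CPM (SD, n = 3 each). Of 28 interferon-stimulated genes 12 were tested and 0 called (3 positive and 9 negative, median -0.16), and Ifitm3 alone had an unadjusted p under 0.05 in edgeR. The most abundant were Ly6e at 1711 ± 325 and 1838 ± 186, Ifi27l2a at 966 ± 195 and 824 ± 146 and Ly6a at 740 ± 233 and 511 ± 171 CPM (SD, n = 3 each), with ranges that overlapped for all 3.

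Of 22 genes of antigen presentation and costimulation 15 were tested and 0 called, 10 with a negative log2 difference and a median of -0.41, and 2 had an unadjusted p under 0.05 in edgeR. Groups did not overlap for 4 of the 15, all lower, against 14.9% of all 3471 genes (167 higher and 350 lower), and these 4 were named after their values were seen. They were H2-Ab1, a class II chain, H2-DMb1, which loads class II peptides, Ctss, the protease that frees the class II groove, and H2-D1, a class I chain. H2-D1 had 2839, 2531 and 2602 CPM in the vehicle and 1647, 1376 and 1815 CPM in the ginkgetin replicates. Cd74, the class II invariant chain, had means of 6011 ± 1323 and 5180 ± 1113 CPM, B2m, the class I light chain, 4738 ± 2743 and 3118 ± 1245 CPM and H2-Aa 1990 ± 438 and 1436 ± 204 CPM (SD, n = 3 each), all with overlapping ranges. Cd74 in cDC1s and cDC2s had means of 16749 and 20138 CPM. Cd86 and Cd80, ligands that costimulate T cells, were at 12 and 1 UMIs over all pDCs.

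The secretory machinery, which pDCs hold in readiness much as plasma cells do, had 25 of 28 genes tested and 0 called (11 positive and 14 negative, median -0.17, 3 at an unadjusted p under 0.05 in edgeR). Groups did not overlap for 6 of the 25, all lower, again against 14.9% of all genes (167 higher and 350 lower). Sec61b and Sec61g, parts of the channel into the endoplasmic reticulum, had 1302 ± 100.1 and 1489 ± 336 CPM and 774 ± 68.8 and 957 ± 146 CPM (SD, n = 3 each). Ssr4, a partner of that channel, had 506, 516 and 513 against 397, 474 and 295 CPM. Xbp1, the secretory transcription factor, had 382, 348 and 289 against 215, 180 and 498 CPM (log2 -0.17, SE 0.34, edgeR adjusted p 0.916), so the ginkgetin libraries lay on both sides of the vehicle range.

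Receptors that restrain interferon output through DAP12 and related adaptors also gave 0 calls among 16 tested of 20 (10 positive and 6 negative, median 0.03, 0 at an unadjusted p under 0.05 in edgeR). Tyrobp, which encodes DAP12, had 5964 ± 1026 and 5290 ± 1774 CPM (SD, n = 3 each), and Fcer1g, a second adaptor, 1643, 1654 and 1648 against 1490, 1249 and 848 CPM. The 3 vehicle values of Fcer1g were nearly equal and the ginkgetin values all lay below them.

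Chemokine and homing genes had 14 of 20 tested and 0 called (12 positive and 2 negative, median 0.18, 1 at an unadjusted p under 0.05 in edgeR). Selplg, a selectin ligand used in rolling on vessel walls, had 695 ± 105 and 778 ± 216 CPM (SD, n = 3 each). Ccl4 spread most within a group, with 801, 2053 and 4059 CPM in the vehicle and 761, 925 and 1863 CPM in the ginkgetin replicates, where the highest value includes the Ifnb1-bearing cell described above. Ccr9, which helped choose the cells, differed by 0.59 and Siglech by 0.29 on the log2 scale, given as a description.

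**Figure D5:**
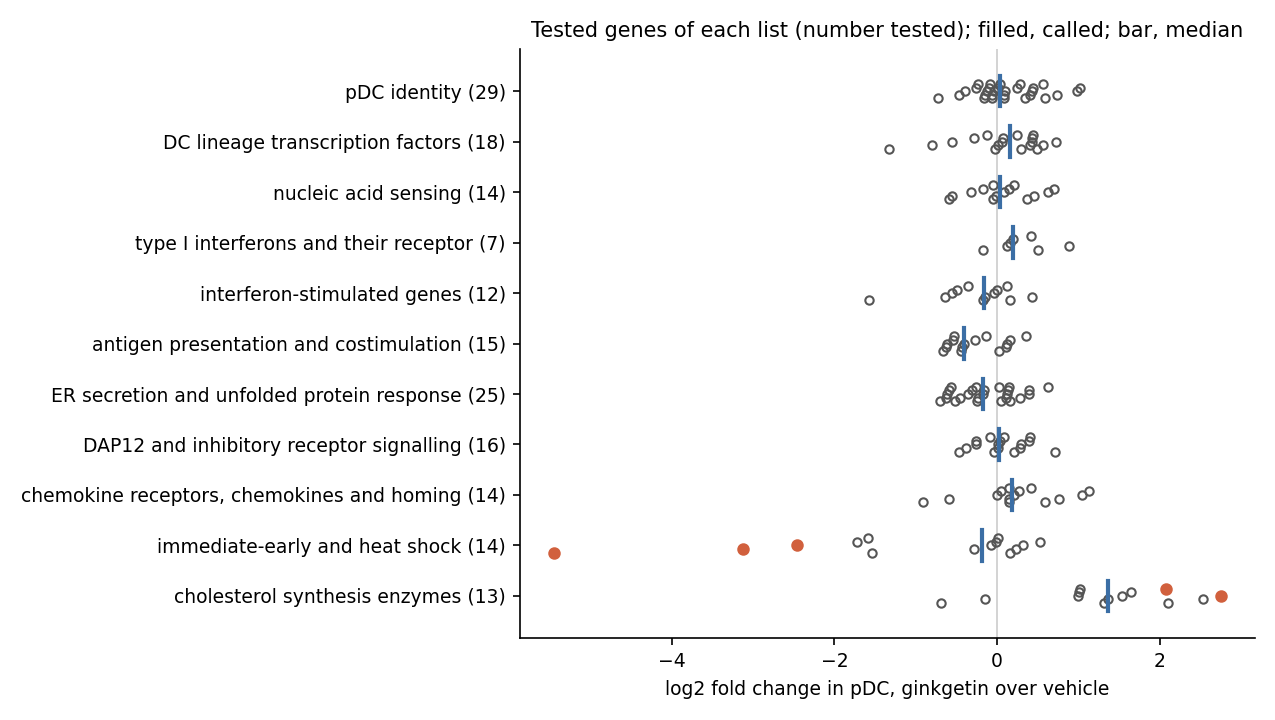
Log2 fold change in pDCs, ginkgetin over vehicle, of each tested gene of 11 lists, with called genes filled and list medians as blue bars. Medians of the first 9 lists lay between -0.41 and 0.20, the 3 called genes of the immediate-early and heat shock list lay far to the left, and the last list was put together after its values had been seen.

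The immediate-early and heat shock list, genes that answer stress and tissue handling within minutes to hours, held the 3 genes that fell. Of 16 members 14 were tested, 3 were called lower (0.0864% of all genes were called lower), and with the libraries paired 5 were (0.576% of all). The other 2 were Hsp90aa1, an inducible chaperone, and Dnajb1, a partner of HSP70, both named after their values were seen. Hsp90aa1 had 1559, 1818 and 955 against 712, 293 and 453 CPM (log2 -1.54, edgeR adjusted p 0.183, 0.00626 paired), and Dnajb1 404, 533 and 164 against 232, 73.8 and 86.7 CPM (log2 -1.59, edgeR adjusted p 0.324, 0.0264 paired). Over the 14 genes 5 differences were positive and 9 negative, with a median of -0.18, and 6 of the 14 had an unadjusted p under 0.05 in edgeR. Outside the list, and named after their values were seen, Hspa8, a constitutive HSP70, Dnaja1, its partner, and Ubb, a ubiquitin gene, were also called lower with the libraries paired (log2 -1.46, -1.25 and -1.04, edgeR adjusted p 0.00484, 0.0371 and 0.0404). Summed over the list, pDCs had 4768, 7035 and 4741 CPM in the vehicle and 2847, 2221 and 2573 CPM in the ginkgetin replicates. In all other kept cells the list summed to 3894 to 7510 CPM and 4635 to 6292 CPM, and there the groups overlapped. How long the cells of each library were handled is not given in the sources used here, and the part of handling in these genes was not tested.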

How the data were processed

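The authors deposited raw UMI counts per gene symbol and cell barcode for each library, with no normalization. The submitters' processing notes name the builds GRCm38 and mm10, and the aligner and annotation are not given in the sources used here. The study's methods describe 10x Chromium libraries, whereas the labels name another library kit. The values were whole numbers, and the 33168 barcodes were cut here to those with under 5000 genes and under 5% mitochondrial UMIs (27544 cells), the reading of the stated UMI range of 250 to 5000 as genes. No doublets were removed, and leaving out the cells with the highest 5% of UMIs was tried instead.

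UMIs of gated cells were summed per library and tested in R 4.3.3 with edgeR 4.0.16 (TMM, filterByExpr, quasi-likelihood), on the 16131 symbols that the tables of replicates 1 and 2 share with those of replicate 3. DESeq2 1.42.0 and limma 3.58.1 were alternatives. On simulated counts of 3516 genes for the pDC comparison, genes changed by 2 on the log2 scale were recovered in 100% of cases, those raised by 1 in 80% and those lowered by 1 in 67.3%, while 0.181% of 3318 unchanged genes passed the adjusted p. The simulation gave all genes a single fixed spread and no shift of replicate 3, and only genes of higher counts were changed. Whether that spread matched the real libraries was not tested, so these percentages are not the power of the real test. Shares were compared by exact permutation in scipy 1.17.1.

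Groups and replicate numbers came from the labels. Deviations from the group means correlated at 0.218, 0.204 and 0.449 between libraries of the same number, each over 0.1, so the numbers were taken to pair the libraries, although vehicle 1 with ginkgetin 2 (0.155) and vehicle 2 with ginkgetin 1 (0.165) also correlated. The sources used here state no pairing, and these values hardly tell replicates 1 and 2 apart. The genes named were 13 pDC genes, the 15 leading genes, the 6 of lowest p in each direction with a mean of at least 50 CPM in the higher group, and the called or else most abundant members of each list. Some genes that this rule names are not reported here. Members, lists and rule were chosen with earlier results of these data known.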

Additional observations from a re-analysis of the deposited data

How the results depend on the processing

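The share of pDCs among kept cells (difference -0.124 percentage points) changed sign with cells carrying a Ptprc UMI as denominator (0.371), with the UMI filter (0.0172) and with no UMI of the excluded genes allowed (0.116), and ranged from -0.419 to 0.0950 when single libraries were left out. The share among dendritic cells (4.91) was 16.6 with the UMI filter and ranged from -1.15 to 8.54 when single libraries were left out. The 5 called genes became 12 with DESeq2, 2 with limma-voom, 60 with no filter on genes, 36 with the replicate block, 36 with a block for the 2 barcode sets, 23 in replicates 1 and 2 alone, 8 with a gate of 5 UMIs, 17 with no UMI of the excluded genes, 9 without the cells of highest UMIs, and 0 to 4 when single libraries were left out. For the difference between pDCs and cDC1s the count of 0 became 19 with no filter on genes (Fdps, Hspa1a, Hspa1b and Jun then passed), 18 without the cells of highest UMIs, and 0 to 17 when single libraries were left out. The cause was not tested. Over 18 alternatives the 5 genes kept their direction, and Hspa1b was called in 15, Hspa1a in 14, Jun in 12, Fdps in 10 and Sqle in 7. Fdps was not called with Clec9a unlimited (log2 1.44, edgeR adjusted p 0.204). Small differences turned: Siglech to -0.018 and Tlr7 to -0.18 in replicates 1 and 2 alone, Bst2 to -0.036 with no filter on genes, -0.0037 with no cell filter, -0.019 with a gate of 5 UMIs and -0.022 with no UMI of the excluded genes. With single libraries left out, Bst2 ranged from -0.093 to 0.19, Ly6d from -0.25 to 0.052, Tlr7 from -0.14 to 0.60 and Xbp1 from -0.67 to 0.058. The difference between pDCs and cDC1s for Hspa1b turned to 0.51 without the cells of highest UMIs. The alternatives with Clec9a unlimited and the barcode-set block on cell numbers were chosen after seeing the data. The UMI filter for both gene tests, and no UMI of the excluded genes for the comparison with cDC1s, were not run because too few cells were left. With 20 to 93 pDCs per library, depth limits every gene of few UMIs, such as Sqle and Tlr9.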

Other observations

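The CD8 chains, which mark a share of mouse pDCs and cDC1s as well as T cells, were called lower in ginkgetin pDCs by edgeR with the libraries paired and not by unpaired edgeR, and were named after their values were seen. Cd8b1 had 440, 332 and 246 CPM in the vehicle and 116, 139 and 170 CPM in the ginkgetin replicates (log2 -1.20, SE 0.30, edgeR adjusted p 0.183, 0.0395 paired). Cd8a had 194, 54.6 and 147 CPM against 66.2, 32.8 and 32.1 CPM (log2 -1.72, SE 0.46, edgeR adjusted p 0.199, 0.0421 paired). The libraries of the groups stayed apart for Cd8b1 and overlapped for Cd8a. The summed T and NK cell markers in pDCs were at most 41.3 CPM.

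Ighm, the immunoglobulin heavy chain gene of B cells, has its symbol in the replicate 3 tables only. There every pDC had a UMI of it, 20 of 20 in vehicle and 31 of 31 in ginkgetin, at medians of 8673 and 10288 UMIs per cell. With each cell thinned to 1000 UMIs, 30% and 64.5% of pDCs had one in one random draw and 55% and 71.0% in another, so the difference between these 2 libraries is not read. In the first draw 20% and 17.6% of cDC1s, 2.15% and 2.06% of macrophages and 75.6% and 85.4% of B cells had one.

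Lag3, a receptor for class II molecules, stood at 1.80 CPM in the pDCs of vehicle replicate 1 and at 66.2 to 292 CPM in those of the other 5 libraries.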
